A study of Mus musculus with 2 samples.

Results

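The genes described here are the axon guidance ligands and receptors of the semaphorin, plexin, neuropilin, Slit and Robo families, taken as every gene row whose symbol begins with Sema, Plxna, Plxnb, Plxnc, Plxnd, Robo or Slit and a family number or letter, plus Nrp1 and Nrp2. They were 41 of 32293 genes: 20 semaphorins, 9 plexins, 2 neuropilins, 3 Slits, 4 Robos and 3 antisense RNAs at the Plxna4 locus. The nuclei came from femoral bone marrow of mice at postnatal day 21 that carried Prrx1-cre and R26R-tdTomato, so that tdTomato marked the limb mesenchyme lineage in which Prrx1-cre acts, and tdTomato+ cells were sorted before nuclei were prepared. About 15000 nuclei were loaded for joint RNA and open chromatin profiling. Femurs of both sexes from one litter were pooled, there was no second genotype, treatment or age, and the RNA and chromatin measurements came from the same nuclei, so the series held 1 sample and every comparison below was between classes of nuclei within it.

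Semaphorins are secreted or membrane-bound ligands that steer cell shape and movement through plexin receptors, and class 3 semaphorins mostly need a neuropilin beside the plexin. Slits are large secreted ligands of Robo receptors. Beyond axon guidance, these families act in bone and vessels: SEMA3A and SEMA4D are known regulators of bone formation and resorption, SEMA3E acts through plexin D1 on endothelial cells, and SLIT3 has been tied to the coupling of vessels and bone.

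Of 4663 nuclei with at least 500 UMIs and 1000 chromatin counts, 3236 exceeded a mitochondrial share of 10% and 16 were taken as doublets, and 1411 were kept, with 4025855 UMIs in all and a median of 1544 each. Marker genes gated 538 stromal nuclei: 368 reticular-like (markers of the Cxcl12 and Lepr type), 96 osteoblast-like, 30 osteocyte-like, 7 chondrocyte-like, 18 tenocyte-like or periosteal-like and 19 mural-like. A further 205 were blood nuclei: 77 erythroid-like, 64 granulocyte-like, 29 macrophage-like or osteoclast-like and 35 B-lymphoid-like. tdTomato RNA stood at 273 to 639 UMIs per 1e+06 UMIs (CPM) in the stromal classes, at 24.98 to 52.5 CPM in erythroid, granulocyte and B-lymphoid nuclei and at 179 CPM in the macrophage or osteoclast nuclei. A gate is a range of a marker count and not a type: 41 reticular, 37 osteoblast, 10 osteocyte and 11 macrophage or osteoclast nuclei lay near the limit (at most 6 marker UMIs, or under 2.5 times the share in free RNA), 601 nuclei passed no gate and 61 passed several. The median nucleus of the reticular class held 17 reticular and 3 osteoblast marker UMIs, that of the osteoblast class 24 osteoblast and 1 reticular, and that of the osteocyte class 31 osteoblast, 16 osteocyte and 1 reticular. With 1 sample there was no replicate and no test; levels are the summed UMIs of a class in CPM, with exact 95% Poisson intervals that cover counting error only, and a difference is named where the ratio was 2-fold or more on at least 20 UMIs.

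**Figure D1:**
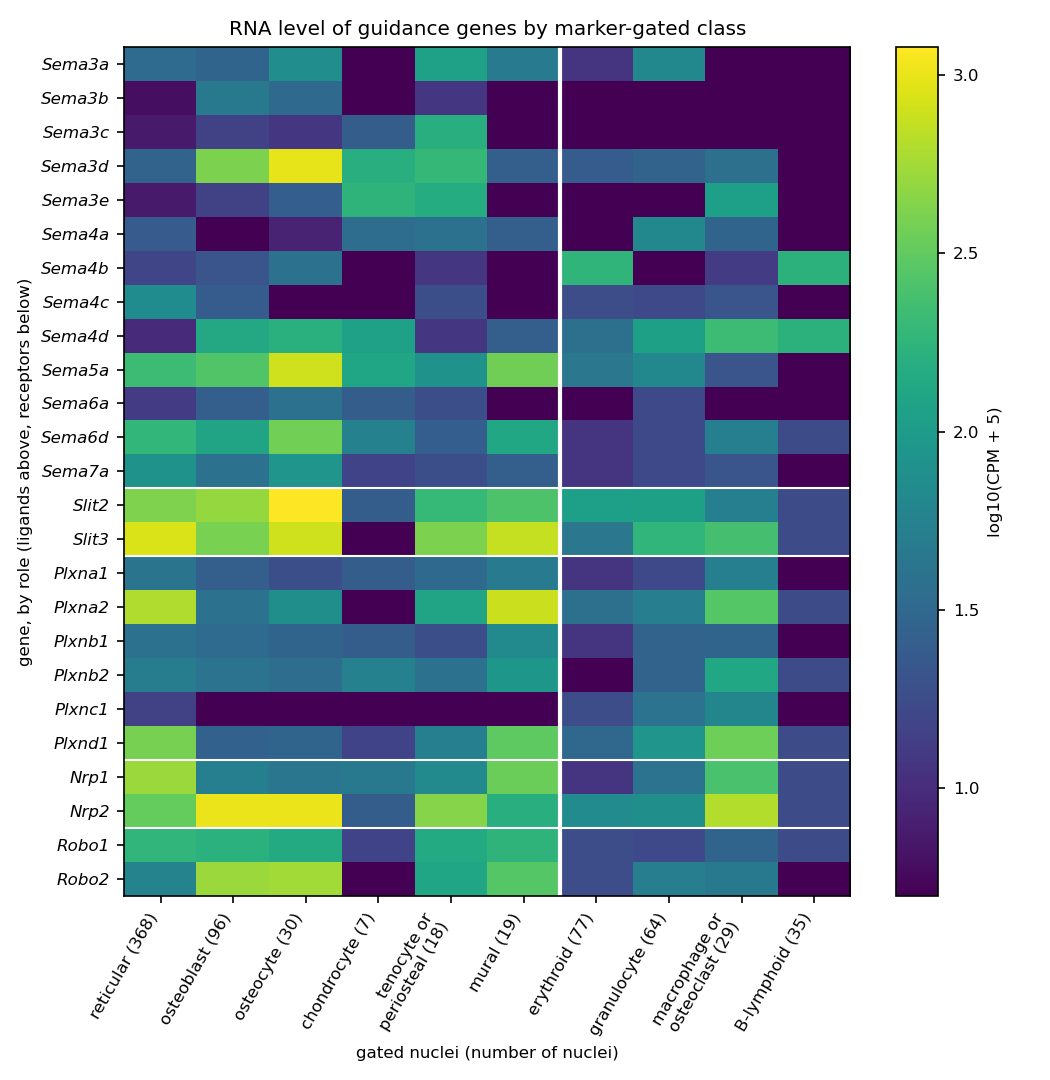
Level of each gene with 20 or more UMIs (rows, ligands above and receptors below) in each gated class (columns, number of nuclei in brackets), as log10(CPM + 5), stromal classes left of the thick line. Nrp1, Plxna2 and Plxnd1 were bright in the reticular, mural and macrophage or osteoclast columns, and Nrp2, Robo2 and Sema3d in the osteoblast and osteocyte columns.

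Across the gated nuclei 25 of the 41 genes had at least 20 UMIs and 14 had at least 100. Another 9 had 1 to 19 UMIs: Plxna4 and Sema6c with 17 each, Plxna3 with 16, Sema6b with 9, Sema5b with 5, Sema4g with 4, Sema3f and Slit1 with 3 each and Sema4f with 1. The last 7 (Plxnb3, Robo3, Robo4, Sema3g and the antisense RNAs Plxna4os1, Plxna4os2 and Plxna4os3) had none. Slit2 and Slit3 are each overlapped on the same strand by another gene model (Gm20475 and Gm12122), so reads in those stretches could be assigned to either.

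The stromal nuclei carried more of most of these RNAs than the blood nuclei. Of 25 genes with enough UMIs, 17 were higher in stromal nuclei, where 19.2% of all genes tested were, and 2 were lower, where 25.1% were. The median log2 ratio of stromal over blood was 1.58 for these genes and -0.31 for all 9287 genes tested. Both abundant Slits were among them: Slit2 stood at 512 CPM (481 to 544) against 72.7 (49.7 to 103) and Slit3 at 642 (607 to 677) against 116 (86.2 to 152). Their receptors followed, Robo2 with 275 CPM (252 to 298) against 24.98 (12.5 to 44.7) and Robo1 with 156 (139 to 174) against 15.9 (6.39 to 32.8). None of these 4 pairs of intervals overlapped.

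Among the semaphorins, Sema3d, a secreted class 3 ligand, had the largest ratio of those with UMIs on both sides, 292 CPM (269 to 317) in stromal and 20.4 (9.35 to 38.8) in blood nuclei, a log2 ratio of 3.76 (2.90 to 4.97). Sema5a, a membrane semaphorin with thrombospondin repeats, followed at 3.30 (2.57 to 4.27) and Sema6d, a transmembrane ligand of plexin A1, at 2.99 (2.12 to 4.20). Sema3b and Sema3c had 35 and 34 stromal UMIs and none in blood nuclei, at least 2.52-fold and 2.45-fold higher when the blood nuclei are set at the 3 counts that a zero allows. The genes that were higher in blood nuclei were Plxnc1, the receptor of Sema7a, with 27.2 CPM (14.1 to 47.6) against 3.92 (1.69 to 7.73), and the transmembrane ligand Sema4b with 93.1 (66.8 to 126) against 14.7 (9.93 to 21.0). Plxnd1, Sema3e, Sema4a, Sema4d, Plxna1 and Plxnb2 differed by less than 2-fold between the pools. Without the macrophage or osteoclast nuclei the count was 21 in place of 19, and 17 genes were in both counts. Of all genes 26.9% were then higher and 22.6% lower.

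**Figure D2:**
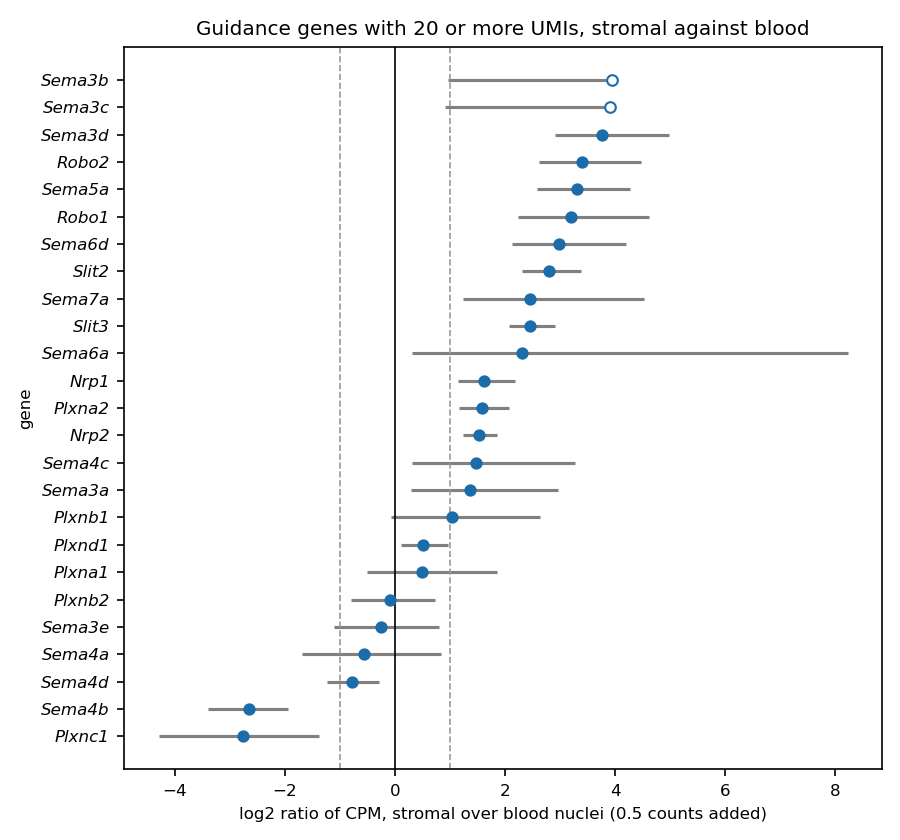
The log2 ratio of CPM in stromal over blood nuclei (horizontal axis) for the 25 genes with 20 or more UMIs (vertical axis), with exact 95% intervals for counting error; open points had no UMI in blood nuclei and dashed lines mark 2-fold. 17 genes lay to the right of the upper line and Sema4b and Plxnc1 to the left of the lower one.

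Within the stroma the receptors fell on different sides of the reticular and bone classes. In reticular nuclei 5 of 24 genes were higher than in the other stromal nuclei and 8 were lower; of all 8137 genes tested, 28.7% were higher and 8.69% were lower. Plxna2, Nrp1 and Plxnd1 made up the receptor side of the first group. Neuropilin 1, co-receptor of class 3 semaphorins and of VEGF, stood at 520 CPM (472 to 571) in reticular, 48.6 (32.8 to 69.4) in osteoblast, 37.6 (18.8 to 67.3) in osteocyte, 40.4 (11.0 to 103) in chondrocyte, 62.2 (28.4 to 118) in tenocyte or periosteal and 343 (196 to 557) in mural nuclei. Reticular and mural nuclei were high and overlapped each other, and the remaining 4 stromal classes lay below both. At a mitochondrial limit of 20%, Nrp1 was 452 CPM (416 to 491) in reticular and 289 (214 to 382) in mural nuclei. With no limit it was 426 (393 to 461) and 202 (156 to 257). In both settings the mural level lay below the reticular level without overlap.

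Plexin A2 was also high in these classes, with 621 CPM (569 to 677) in reticular, 34.0 (21.1 to 52.0) in osteoblast, 71.8 (44.5 to 110) in osteocyte, 117 (68.4 to 188) in tenocyte or periosteal and 771 (540 to 1068) in mural nuclei, and with no UMI in the chondrocyte nuclei, which allows up to 30.3 CPM. Plexin D1, the receptor of Sema3e, had 385 CPM (344 to 430) in reticular and 300 (164 to 503) in mural nuclei and 10.1 to 48.3 CPM in the others. The log2 ratios of reticular over other stromal nuclei were 3.41 (2.96 to 3.92) for Plxnd1, 3.15 (2.79 to 3.54) for Nrp1 and 2.97 (2.66 to 3.30) for Plxna2, where the median of all genes was 0.52; the medians were -0.63 in osteoblast, -0.37 in osteocyte and 0.23 in mural nuclei. With ratios centred on these medians, 4 of 24 genes were higher and 12 lower in reticular nuclei (14.5% and 16.1% of all genes), 6 higher and 5 lower in osteoblast nuclei (10.6% and 17.5%) and 12 higher and 5 lower in osteocyte nuclei (11.2% and 18.9%). No single reticular nucleus held more than 3.44% of the UMIs of any of the 3 genes. In the mural class 1 nucleus held 30.6% of the Plxna2 UMIs, and with no mitochondrial limit, over 99 mural nuclei, the level was 202 CPM (156 to 257), below the interval given above. Plxnd1 in these mural nuclei was then 254 CPM (203 to 315), below its level of 375 (344 to 408) in reticular nuclei.

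Neuropilin 2, the other class 3 co-receptor, had the reverse order. It stood at 1022 CPM (944 to 1105) in osteoblast and 1016 (903 to 1138) in osteocyte nuclei, 435 (334 to 557) in tenocyte or periosteal, 321 (284 to 362) in reticular, 150 (60.3 to 309) in mural and 20.2 (2.45 to 73.0) in chondrocyte nuclei. The 2 bone classes did not differ beyond their intervals, and both lay above every other stromal class. At a mitochondrial limit of 20%, Nrp2 was 1043 CPM (995 to 1093) in osteoblast and 831 (772 to 894) in osteocyte nuclei. With no limit it was 964 (926 to 1003) and 797 (748 to 849). In both settings the osteocyte level lay below the osteoblast level without overlap. In the tenocyte or periosteal class 1 nucleus held 63.5% of the Nrp2 UMIs, and the level without it was 188 CPM.

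The remaining plexins were low in all stromal classes. Plxnb2, a receptor of Sema4d and Sema4c, ranged from 30.8 to 85.7 CPM, Plxnb1 from 13.8 to 64.3 CPM and Plxna1 from 13.7 to 42.9 CPM, with overlapping intervals. In mural nuclei Plxnb1 and Plxnb2 were past 2-fold on 3 and 4 mural UMIs, and the intervals of both ratios covered 0. Summed over the 9 plexins, the level was 1137 CPM (1066 to 1211) in reticular and 1286 (981 to 1655) in mural nuclei, against 167 (136 to 202) in osteoblast and 181 (136 to 237) in osteocyte nuclei.

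**Figure D3:**
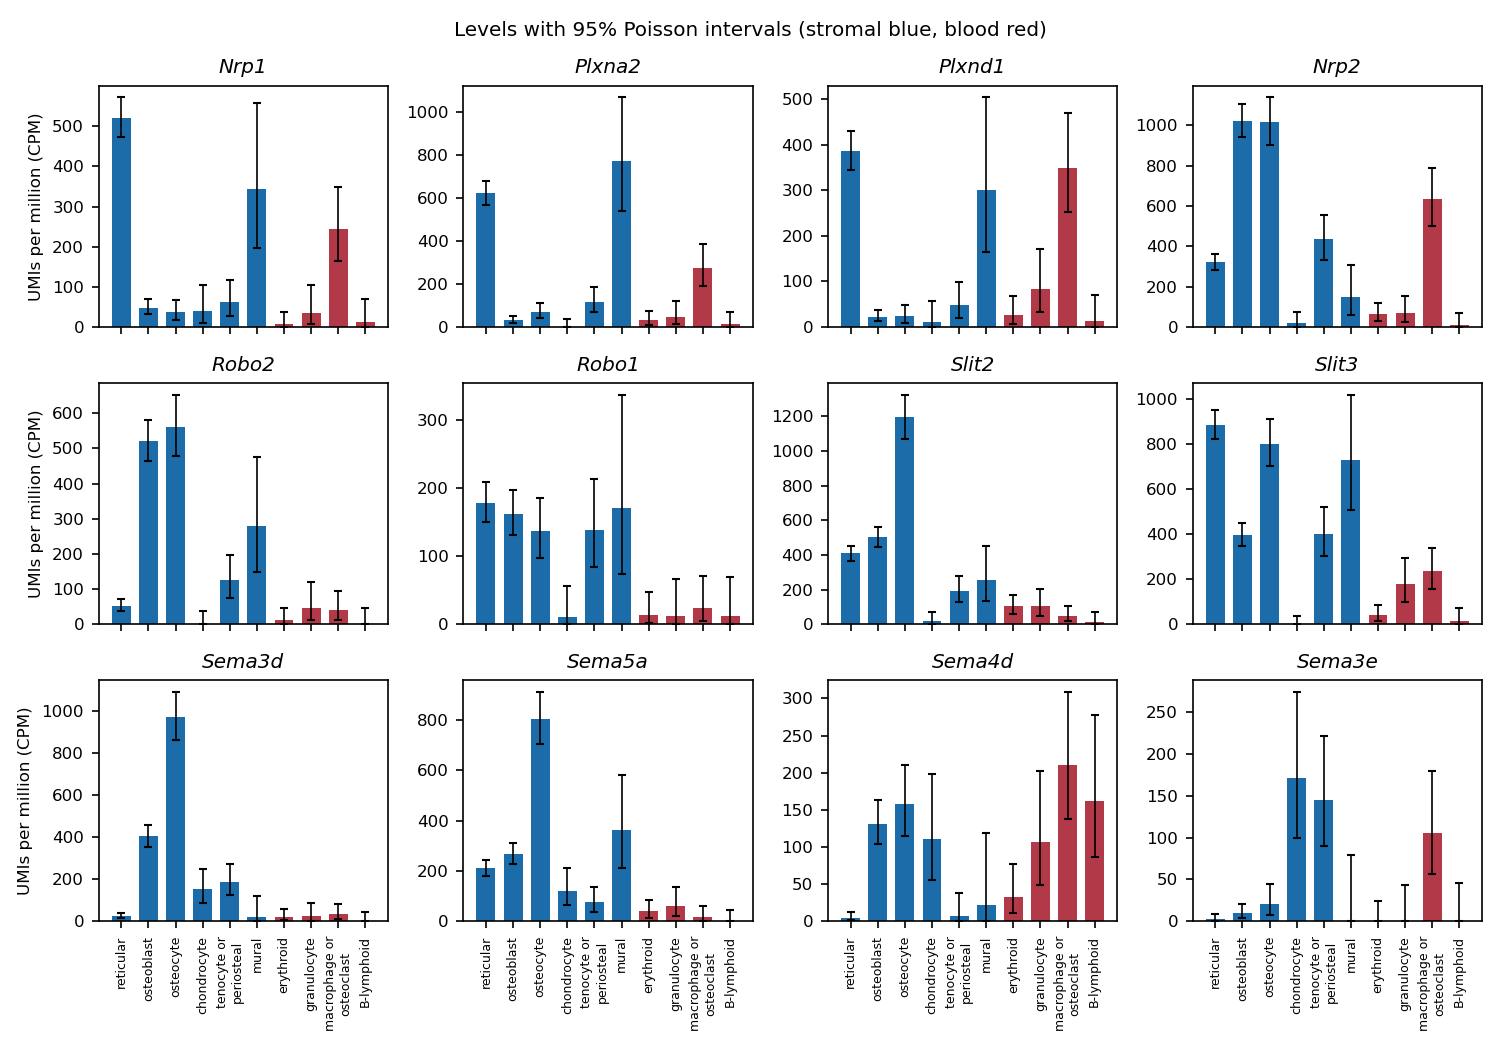
Level in CPM (vertical axes, each starting at 0) of 12 genes in the 10 gated classes, stromal in blue and blood in red, with 95% Poisson intervals for counting error. Nrp1, Plxna2 and Plxnd1 shared their high classes, Nrp2 and Robo2 were highest in osteoblast and osteocyte nuclei, and Slit2, Sema3d and Sema5a were highest in osteocyte nuclei.

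Of the Robo receptors, Robo1 had overlapping intervals in 5 of the 6 stromal classes and a lower level in chondrocyte nuclei. Robo1 stood at 178 CPM (150 to 209) in reticular, 162 (132 to 197) in osteoblast, 137 (97.7 to 186) in osteocyte, 138 (84.4 to 213) in tenocyte or periosteal and 171 (74.0 to 338) in mural nuclei, with overlapping intervals, and at 10.1 (0.256 to 56.3) in chondrocyte nuclei. Robo2 stood at 520 CPM (465 to 580) in osteoblast and 561 (478 to 654) in osteocyte nuclei, against 52.5 (38.1 to 70.5) in reticular nuclei, or 31.4 CPM without the reticular nucleus that held most. The log2 ratio of reticular over other stromal nuclei was -3.02 (-3.51 to -2.59). The Robo2 values of 279 CPM in mural and 124 CPM in tenocyte or periosteal nuclei rested on 1 nucleus each, which held 92.3% and 77.8% of their UMIs.

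Slit2 and Slit3 were abundant in every stromal class except the chondrocyte nuclei. Slit2 was highest in osteocyte nuclei with 1193 CPM (1072 to 1326), then 502 (448 to 561) in osteoblast, 408 (366 to 454) in reticular, 257 (133 to 449) in mural and 193 (129 to 280) in tenocyte or periosteal nuclei. Its log2 ratio of osteocyte over other stromal nuclei was 1.59 (1.40 to 1.77). The 14 osteocyte nuclei that did not also pass the osteoblast gate had 2033 CPM (1710 to 2399) and the 16 that did had 935 (812 to 1071). Other genes had the opposite order in these parts: Sema3d stood at 537 CPM without and 1105 with the osteoblast gate, Sema5a at 537 and 886, Sema6d at 87.1 and 456 and Robo2 at 276 and 649. At a mitochondrial limit of 20%, over 49 nuclei, Slit2 in tenocyte or periosteal nuclei was 371 CPM (309 to 442), and with no limit it was 326 (279 to 380). Slit3 stood at 882 CPM (819 to 947) in reticular, 800 (701 to 910) in osteocyte, 729 (505 to 1018) in mural, 401 (304 to 518) in tenocyte or periosteal and 394 (346 to 446) in osteoblast nuclei. The first 3 of these did not differ beyond their intervals, and the osteoblast level lay below each of them. At a mitochondrial limit of 20%, Slit3 was 817 CPM (768 to 869) in reticular and 603 (553 to 656) in osteocyte nuclei. With no limit it was 774 (730 to 821) in reticular, 607 (525 to 698) in mural and 546 (506 to 590) in osteocyte nuclei. Osteocyte nuclei lay below reticular nuclei at both limits, and mural nuclei only with no limit. In the tenocyte or periosteal class 1 nucleus held 51.7% of the Slit3 UMIs, and the level without it was 229 CPM. In the 7 chondrocyte nuclei Slit3 had no UMI, at least 22.3-fold lower than in the other stromal nuclei, and Slit2 had 2 UMIs, both in 1 nucleus.

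Clustering placed 29 of the 30 osteocyte nuclei in osteoblast clusters and named no cluster osteocyte. This class therefore rests on its gate alone and had no counterpart when classes were taken from clusters. In osteocyte nuclei 9 of 24 genes were higher than in the other stromal nuclei, where 5.59% of all genes were, and 6 were lower, where 27.4% were. Sema3d, a class 3 semaphorin, had the largest ratio of them, with 971 CPM (862 to 1091) in osteocyte, 403 (355 to 457) in osteoblast, 186 (123 to 271) in tenocyte or periosteal, 152 (84.8 to 250) in chondrocyte, 23.9 (14.6 to 36.8) in reticular and 21.4 (0.543 to 119) in mural nuclei. Osteocyte, osteoblast and then the remaining classes formed steps without overlap. The 14 osteocyte nuclei without the osteoblast gate, at 537 CPM (378 to 741), overlapped the osteoblast class. Without the nucleus that held most in each class, the levels were 778 CPM in osteocyte and 326 CPM in osteoblast nuclei. With no mitochondrial limit, over 138 osteocyte nuclei, the osteocyte level was 537 CPM (497 to 580). The chondrocyte value came mostly from 1 nucleus, with 86.7% of the UMIs, and 1 reticular nucleus held 55.0% of the reticular UMIs, leaving 10.9 CPM without it.

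Sema3c, known from heart outflow and vessel development, had 22 of its 34 stromal UMIs in the 18 tenocyte or periosteal nuclei, 152 CPM (95.2 to 230) against 6.34 (3.27 to 11.1) elsewhere in the stroma, a log2 ratio of 4.56 (3.51 to 5.73). Sema3e stood at 145 CPM (89.8 to 222) there and at 172 (100 to 275) in chondrocyte nuclei, against 2.39 (0.289 to 8.62) in reticular nuclei, where its receptor Plxnd1 stood at 385 CPM. In the chondrocyte class 1 nucleus held 82.4% of the Sema3e UMIs, and clustering placed 6 of the 7 chondrocyte nuclei in a tenocyte or periosteal cluster and 1 in an osteoblast cluster. At mitochondrial limits of 20% and none, Sema3e was 74.3 and 48.3 CPM in tenocyte or periosteal and 86.9 and 72.8 CPM in chondrocyte nuclei, and Sema3c was 95.05 and 83.1 CPM in tenocyte or periosteal nuclei. Sema3a, the ligand of neuropilin 1, was 111 CPM (63.2 to 179) in tenocyte or periosteal nuclei against 32.2 (24.6 to 41.4) elsewhere in the stroma, with 56.2% of its UMIs there in 1 nucleus.

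Inside that mixed class the ligands sat in different nuclei. The 5 nuclei with the tenocyte gate alone had 493 CPM (287 to 790) of both Sema3e and Sema3d on 17 UMIs each. The 5 with both gates had 327 CPM (179 to 549) of Sema3c and 304 (162 to 520) of Sema3a, and 46.8 (5.66 to 169) of Sema3e. The 8 with the periosteal gate alone had 800 CPM (601 to 1043) of Slit3 and 88.8 (32.6 to 193) of Sema3c. The nucleus that held most of the Slit3 UMIs of the whole class was among these 8 and held most of theirs. Without it the Slit3 level of the whole class was 229 CPM. Likewise, the nucleus with most of the Sema3a UMIs of the class was among the 5 with both gates and held most of theirs. The intervals do not cover this dependence on a lone nucleus. In all, 4 of 24 genes were higher in tenocyte or periosteal nuclei, with 13.7% of all genes, and 10 were lower, with 19.4%. In chondrocyte nuclei 2 were higher, with 21.0% of all genes, and 15 were lower, with 29.2%.

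Osteoblast nuclei had 4 of 24 genes higher than the other stromal nuclei, where 2.90% of all genes were, and 6 lower, where 33.7% were. The 4 were Sema3b, Robo2, Sema4d and Nrp2. Sema3b, a short secreted ligand gene, had 25 of its 35 stromal UMIs there, 40.5 CPM (26.2 to 59.8) against 7.04 (3.37 to 12.9). Sema4d, a membrane ligand of plexins B1 and B2, stood at 131 CPM (104 to 163) in osteoblast, 157 (115 to 210) in osteocyte and 111 (55.5 to 199) in chondrocyte nuclei, and at 4.77 (1.30 to 12.2) in reticular, 6.91 (0.175 to 38.5) in tenocyte or periosteal and 21.4 (0.543 to 119) in mural nuclei. Its log2 ratio of reticular over other stromal nuclei, -4.45 (-6.51 to -3.22), was the lowest of the 24 genes.

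Osteocyte nuclei also led in the transmembrane ligands Sema5a and Sema6d. Sema5a stood at 804 CPM (704 to 913) in osteocyte, 364 (212 to 583) in mural, 267 (228 to 311) in osteoblast, 210 (180 to 243) in reticular, 121 (62.6 to 212) in chondrocyte and 76.0 (37.9 to 136) in tenocyte or periosteal nuclei. Only the osteocyte level lay above all other intervals. Sema6d stood at 369 CPM (303 to 446) in osteocyte nuclei and 184 (156 to 215) in reticular nuclei, but 1 osteocyte nucleus held 52.8% of its UMIs there and the level without it was 194 CPM. Likewise 1 nucleus held most of the Sema3a UMIs in this class, where its level was 68.4 CPM (41.8 to 106) with that nucleus and 28.0 without it. Sema7a, a GPI-anchored ligand, was 82.1 CPM (52.6 to 122) in osteocyte, 77.5 (59.8 to 98.8) in reticular and 34.0 (21.1 to 52.0) in osteoblast nuclei. Sema4c, a ligand of plexin B2, was the semaphorin that reticular nuclei had most over other stroma, 66.8 CPM (50.5 to 86.7) against 11.7 (6.38 to 19.6), while the fifth gene, Sema4a, had 16 reticular and 10 other UMIs and a ratio interval that covered 0. Summed over the 20 semaphorins, osteocyte nuclei had 2582 CPM (2401 to 2773), osteoblast nuclei 1095 (1014 to 1181) and reticular nuclei 664 (610 to 722).

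In mural nuclei 4 of 24 genes were higher than in other stromal nuclei, where 26.3% of all genes were, and 5 were lower, where 13.6% were. Plxna2, with a log2 ratio of 1.42 (0.88 to 1.89), was the only one of the 4 whose interval did not cover 0, but it turned to -0.44 with a stricter gate and to -0.23 with classes from clusters, and Nrp2 and Sema3d were the lower genes of which this held. These 19 nuclei carried 46668 UMIs, so that most other members were within a few UMIs of 0.

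To compare genes, levels were divided by gene length, since long genes give more nuclear reads. Per kb of gene, Plxnd1 was the most abundant of the 41 genes in reticular nuclei with 9.59 CPM per kb, followed by Sema4c with 6.88, Nrp1 with 3.59, Sema7a with 3.41 and Plxna2 with 3.13. In osteocyte nuclei Nrp2 was first with 8.80 CPM per kb, then Sema3d with 4.72, Slit2 with 3.68 and Sema7a with 3.61. Slit3 had 1.501 CPM per kb in reticular nuclei, so that its high count was spread over the second longest of the gene spans.

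Sema6d was 117 CPM (91.3 to 147) in osteoblast, 129 (47.2 to 280) in mural, 50.5 (16.4 to 118) in chondrocyte and 20.7 (4.27 to 60.6) in tenocyte or periosteal nuclei. Sema7a was at most 21.4 CPM in the chondrocyte, tenocyte or periosteal and mural nuclei, on 1 or 2 UMIs each.

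Among the blood nuclei only 8 of the 41 genes had 20 UMIs. Macrophage or osteoclast nuclei were higher in 6 of them, where 25.3% of all genes were, and lower in 1, where 20.7% were. They included 4 receptors: Nrp1 at 243 CPM (164 to 348) against 15.8 (5.12 to 36.8) in the other blood nuclei, Plxnd1 at 349 (253 to 470) against 37.8 (19.6 to 66.1) and Plxna2 at 276 (191 to 386) against 31.5 (15.1 to 58.0), and Nrp2 at 633 (500 to 790) against 53.6 (31.2 to 85.8), or 429 CPM without the nucleus that held most. Each of these 4 had under 20 UMIs in the other blood nuclei and met the minimum only through this class. The count of 6 higher genes thus follows in part from the minimum. The median nucleus of this class held 9 macrophage or osteoclast and 2 reticular marker UMIs, reticular markers summed to 803 CPM against 237 to 958 in the other blood classes and 11863 in reticular nuclei. Chondrocyte markers summed to 5754 CPM in this class against 2036 to 3630 in the other blood classes, osteoblast markers to 1201 against 550 to 1135 and mural markers to 276 against 99.9 to 154. Clustering placed 12 of the 29 nuclei in a macrophage or osteoclast cluster and 9 in an unnamed one. With no mitochondrial limit, over 201 nuclei, Nrp1 was 138, Plxna2 81.5 and Nrp2 336 CPM. The part of stromal RNA in these receptor levels was not tested. Of its Slit3 UMIs 65.5% lay in 1 nucleus, and the level was 235 CPM with it and 84.1 CPM without it; in the cluster of that name the log2 ratio of 1.75 turned to -0.10. All 13 Sema3e UMIs of the class were also in 1 nucleus.

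The class 4 semaphorins differed between the blood classes. Sema4d stood at 211 CPM (138 to 309) in macrophage or osteoclast, 162 (86.5 to 278) in B-lymphoid, 106 (48.7 to 202) in granulocyte and 32.8 (10.6 to 76.5) in erythroid nuclei, in this order with each neighbour overlapping the next. Sema4b stood at 177 (117 to 258), or 86.2 with no mitochondrial limit, in erythroid and 162 (86.5 to 278) in B-lymphoid nuclei, had 1 UMI in macrophage or osteoclast nuclei and none in granulocyte nuclei, which allows up to 35.5 CPM. It was the 1 gene higher in erythroid nuclei (19.6% of all genes) and the 1 higher in B-lymphoid nuclei (23.6%), the latter with an interval that reached 0. Lower genes numbered 6 in erythroid (34.7%), 4 in granulocyte (48.6%) and 6 in B-lymphoid nuclei (22.0%), and no gene was higher in granulocyte nuclei (7.47%). Among the lower genes were Nrp1, Nrp2 and Plxna2 in each class, and Plxnd1 in erythroid and B-lymphoid nuclei. These met the UMI minimum only through the macrophage or osteoclast nuclei, so the counts of lower genes follow in part from it. Slit2 stood at 105 CPM in erythroid, 106 in granulocyte, 48.7 in macrophage or osteoclast and 12.5 in B-lymphoid nuclei. In free RNA its level was 116 CPM, which none of these values exceeded. Sema3d, Sema5a, Sema6d, Sema7a, Robo1 and Robo2 had at most 6 UMIs in any blood class, and Plxnb2 had 16 in macrophage or osteoclast nuclei, 130 CPM, and at most 2 in the other blood classes. Plxnc1 had 7 UMIs in macrophage or osteoclast, 3 in granulocyte, 2 in erythroid and none in B-lymphoid nuclei.

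Other genes of these pathways were counted from lists of 19 partners and co-receptors, 29 intracellular effectors and 14 netrin or repulsive guidance genes. Between stromal and blood nuclei 6 of 10 partners tested, 12 of 24 effectors and 4 of 8 netrin genes were higher in stroma, and 2, 3 and 0 were lower; of all genes 19.2% were higher and 25.1% lower. The 2 lower partners had the largest ratios: Cd72, the Sema4d receptor of B cells, with 2 stromal and 26 blood UMIs, and Tyrobp, a myeloid signalling adaptor, with 11 and 45. In reticular against other stromal nuclei 4 of 8 partners, 6 of 23 effectors and 2 of 8 netrin genes were higher, and 1, 4 and 2 were lower, beside 28.7% and 8.69% of all genes. The effector and netrin counts of higher genes were near that background. Chl1, a neuronal adhesion molecule that works with neuropilins, had 42 UMIs in reticular nuclei and none elsewhere in the stroma, and Itga1 (integrin alpha 1) stood at 509 against 56.7 CPM. Farp2, a plexin A effector, was lower in reticular nuclei, at 33.4 against 234 CPM.

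In osteoblast nuclei no partner of 8 was higher and 5 were lower, and 3 effectors of 23 were higher and 7 lower. Of 8 netrin or repulsive guidance genes 1 was higher and 2 were lower, beside 2.90% and 33.7% of all genes. In osteocyte nuclei no partner was higher and 3 were lower, and of the 8 netrin or repulsive guidance genes 1 was higher and 4 were lower. There 5 effectors were higher and 5 lower, beside 5.59% and 27.4% of all genes. Among the higher effectors was the Robo effector Srgap1 at 342 against 45.2 CPM, a log2 ratio of 2.92 (2.48 to 3.36), named after its value was seen. In macrophage or osteoclast nuclei Neo1, a receptor of netrins and repulsive guidance molecules, stood at 503 against 9.46 CPM in the other blood nuclei, on 62 and 3 UMIs.

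Open chromatin over each gene and the 3 kb before it was compared in the same classes, in ATAC CPM where levels are given (counts scaled as for RNA, to the ATAC counts in peaks of the class). For all 19 genes named between stromal and blood nuclei the chromatin ratio had the sign of the RNA ratio. Against other stroma this held for 11 of 13 genes in reticular, 7 of 10 in osteoblast, 12 of 15 in osteocyte, 15 of 17 in chondrocyte, 13 of 14 in tenocyte or periosteal and 5 of 9 in mural nuclei, and against other blood for 7 of 7 in erythroid, 2 of 4 in granulocyte, 6 of 7 in macrophage or osteoclast and 6 of 7 in B-lymphoid nuclei. At the start alone it held for 17 of 17 between stromal and blood nuclei, 10 of 12 in reticular, 7 of 9 in osteoblast, 10 of 12 in osteocyte, 11 of 13 in chondrocyte, 5 of 11 in tenocyte or periosteal and 4 of 8 in mural nuclei, and in blood for 4 of 5 in erythroid, 1 of 3 in granulocyte, 4 of 5 in macrophage or osteoclast and 2 of 4 in B-lymphoid nuclei. The share over all genes was not computed. The chromatin ratios were smaller: Plxna2 had a log2 ratio of 0.89 (0.74 to 1.04), Plxnd1 0.70 (0.58 to 0.83) and Nrp1 0.59 (0.48 to 0.70) in reticular nuclei. Sema4d had the largest, -2.76 (-2.91 to -2.60) in reticular and 2.43 (2.29 to 2.57) in osteoblast nuclei. Nrp2 went the other way, with 335 ATAC CPM in reticular nuclei and 233 in the other stromal nuclei while its RNA was 321 against 833 CPM. At the Nrp2 start alone, within 1 kb, the order was that of the RNA, with a log2 ratio of -0.42 in reticular and 0.59 in osteoblast nuclei against 0.52 and -0.51 over the gene.

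**Figure D4:**
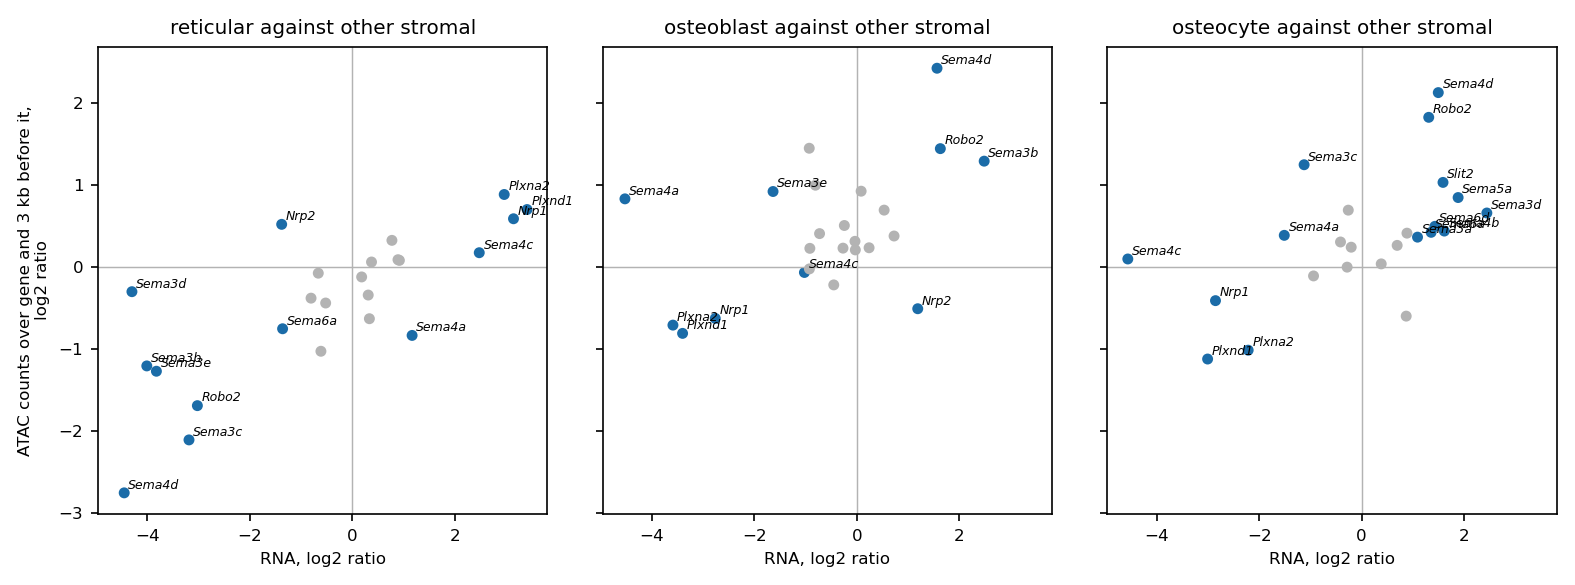
The log2 ratio of RNA (horizontal axis) and of ATAC counts over the gene and 3 kb before it (vertical axis) for each class against the other stromal nuclei; blue points are genes past 2-fold in RNA. Sema4d and Robo2 lay at the same ends of both axes, and Nrp2 lay at opposite ends in reticular and osteoblast nuclei.

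Of 158 peaks over these genes with at least 100 stromal counts, 46 were higher by 2-fold in reticular than in other stromal nuclei, with 33.0% of all 38902 such peaks, and 27 were lower, with 8.03%; in osteoblast nuclei 28 were higher, with 7.73%, and 45 lower, with 35.7%. In Slit3, whose RNA was abundant in both reticular and osteocyte nuclei, peaks at 294 and 296 kb had 107 and 229 counts in reticular nuclei and 3 and 5 in all other stromal nuclei, while the peak at 41.4 kb had 22.3 ATAC CPM in osteoblast nuclei and 2.96 in the other stroma. The peak at the Slit3 start was open alike, with 35.0 and 32.7 ATAC CPM in reticular and other stromal nuclei. In Nrp2 the 5 peaks past 2-fold in reticular nuclei lay between 21.8 and 60.6 kb. A Plxnd1 peak at 5.57 kb had 126 counts in reticular nuclei, or 9.63 ATAC CPM, and none in the other stromal nuclei, where 3 counts would be 0.570 ATAC CPM. All 7 Sema4d peaks were lower by 2-fold in reticular nuclei.

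**Figure D5:**
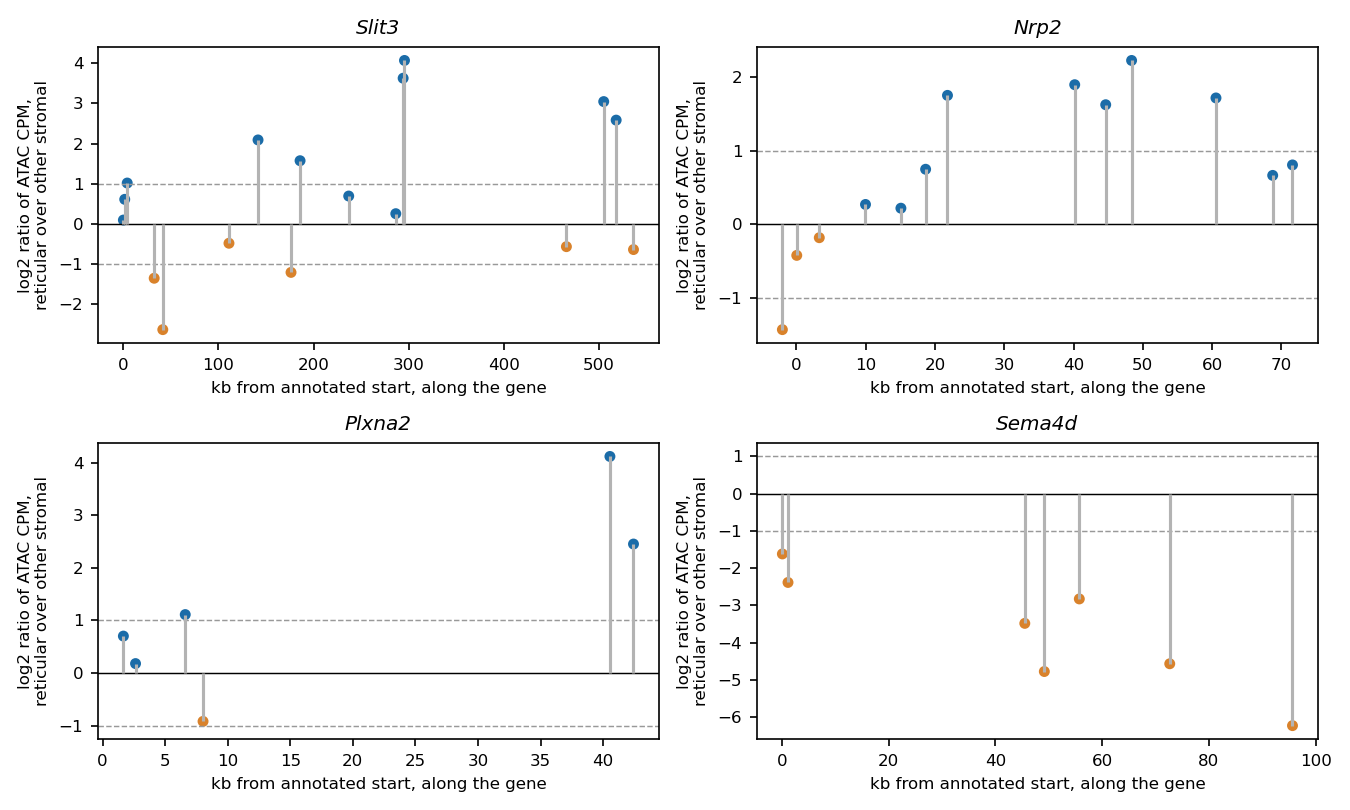
The log2 ratio of ATAC CPM, reticular over other stromal nuclei (vertical axis), of each peak with 100 or more counts, by distance from the annotated start in kb (horizontal axis); blue is higher and orange lower in reticular nuclei. Slit3 held peaks of both kinds, and all Sema4d peaks were lower.

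The central 300 bases of 6 of these peaks are given because they mark where the classes differed inside a gene. They were picked after their values were seen. The Slit3 peak at 142 kb and the Nrp2 peak at 44.6 kb were picked because they hold the EBF motif described below. Larger differences lay at the Slit3 peak at 296 kb (229 and 5 counts) and the Nrp2 peak at 48.4 kb (482 and 41). Each of those windows, not shown, had 2 RUNX matches and 0 EBF matches. ATAC counts in reticular and in all other stromal nuclei were 206 and 19 at the Slit3 peak at 142 kb, 195 and 25 at the Nrp2 peak at 44.6 kb, 116 and 7 at the Nrp1 peak and 4 and 135 at the Sema4d peak; reticular nuclei carried more ATAC counts in all, 13090724 against 2467045 in osteoblast nuclei. All lie in an intron of the named gene. Sequences are the plus strand of mm10, read from GRCm38.p6, and capitals mark TCCC, any 2 bases and GGGA, the motif of early B-cell factors (EBF), or TGTGGT, the core of RUNX motifs, searched on both strands.
Slit3, reticular, chr11:35262688-35262987, 142 kb from the start: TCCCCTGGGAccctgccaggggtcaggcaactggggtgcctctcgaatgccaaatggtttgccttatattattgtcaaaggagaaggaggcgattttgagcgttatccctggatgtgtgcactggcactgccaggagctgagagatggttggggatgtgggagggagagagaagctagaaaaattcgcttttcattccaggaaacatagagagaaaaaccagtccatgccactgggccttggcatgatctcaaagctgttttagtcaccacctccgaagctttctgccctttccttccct
Slit3, osteoblast, chr11:35162481-35162780, 41.4 kb from the start: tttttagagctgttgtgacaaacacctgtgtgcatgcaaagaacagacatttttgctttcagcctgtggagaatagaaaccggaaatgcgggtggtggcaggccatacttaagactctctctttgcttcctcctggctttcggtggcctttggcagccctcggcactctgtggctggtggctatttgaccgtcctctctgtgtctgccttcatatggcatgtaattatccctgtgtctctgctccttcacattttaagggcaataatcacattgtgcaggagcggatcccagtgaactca
Nrp2, reticular, chr1:62747779-62748078, 44.6 kb from the start: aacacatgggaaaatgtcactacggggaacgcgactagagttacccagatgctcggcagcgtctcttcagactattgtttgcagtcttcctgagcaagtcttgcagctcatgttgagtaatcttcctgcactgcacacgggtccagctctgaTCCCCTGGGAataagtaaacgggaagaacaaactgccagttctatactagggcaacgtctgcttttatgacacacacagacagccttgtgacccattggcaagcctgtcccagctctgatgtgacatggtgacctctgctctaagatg
Plxnd1, reticular, chr6:115989282-115989581, 5.57 kb from the start: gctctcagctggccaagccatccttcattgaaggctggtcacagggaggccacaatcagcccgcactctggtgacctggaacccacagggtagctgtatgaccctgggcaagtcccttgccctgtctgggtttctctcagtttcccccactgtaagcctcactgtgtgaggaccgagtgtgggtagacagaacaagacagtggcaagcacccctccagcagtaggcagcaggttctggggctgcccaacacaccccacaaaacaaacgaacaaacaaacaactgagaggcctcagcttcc
Nrp1, reticular, chr8:128486253-128486552, 128 kb from the start: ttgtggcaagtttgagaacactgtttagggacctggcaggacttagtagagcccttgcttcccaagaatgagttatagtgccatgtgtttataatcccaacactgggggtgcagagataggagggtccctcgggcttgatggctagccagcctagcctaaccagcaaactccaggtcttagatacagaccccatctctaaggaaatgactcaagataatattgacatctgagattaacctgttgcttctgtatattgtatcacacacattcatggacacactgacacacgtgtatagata
Sema4d, osteoblast, chr13:51697930-51698229, 95.7 kb from the start: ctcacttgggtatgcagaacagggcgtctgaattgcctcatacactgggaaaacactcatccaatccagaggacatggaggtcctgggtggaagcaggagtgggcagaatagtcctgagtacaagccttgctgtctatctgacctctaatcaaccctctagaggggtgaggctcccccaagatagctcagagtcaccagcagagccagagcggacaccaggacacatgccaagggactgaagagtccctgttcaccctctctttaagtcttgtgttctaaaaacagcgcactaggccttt

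The EBF motif, which reads alike on both strands, was in 4 of the 46 peaks higher in reticular nuclei (in Nrp2, Sema4b, Sema6d and Slit3) and in none of the 27 lower ones. It was in 1.5% of the central 300 bases of all 203502 peaks, in 2.41% of the peaks of any gene that were higher in reticular nuclei and in 0.914% of 27025 promoters. TGTGGT was in 18 of the 46 and in 12 of the 27, against 32.4% of all peaks and 37.0% and 40.9% of all peaks higher and lower in reticular nuclei. A match of letters is a description of the window and not of binding.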

How the data were processed

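One RNA and one ATAC library were made from the same sorted nuclei (joint 10x profiling). The deposited values are raw counts per barcode, UMIs per gene and ATAC counts per peak; per the file headers the matrix came from Cell Ranger ARC 2.0.0, and the genome was mm10 plus transgene sequences. Of 728634 barcodes with 35460453 UMIs and 191398837 ATAC counts, those kept as nuclei had 500 or more UMIs, 1000 or more ATAC counts and no more than 10% of UMIs from mitochondrial genes. Scrublet in scanpy 1.11.5 marked 5 doublets; the 16 with the highest scores were removed. A nucleus passed a gate with at least 5 UMIs from at least 2 markers and 2 times the share in free RNA; nuclei in several gates were left out, but those in both bone gates counted as osteocyte and tenocyte and periosteal gates formed 1 class. UMIs were summed per class (numpy 2.4.6, scipy 1.17.1, pandas 2.3.3) as CPM with exact Poisson intervals; log2 ratios had 0.5 counts added and exact binomial intervals. With 1 library no test was made, and intervals cover counting error only. Named genes were members with at least 100 gated UMIs, and beside them up to 4 per direction and comparison with the largest ratio past 2-fold on at least 20 UMIs, and up to 3 pathway genes per comparison. Members, lists and peaks were chosen with earlier results of these data known, and the gate rule was set after the data were seen. Ratio code was tested on simulated data. There were 14 alternatives, 2 of them chosen after seeing the data: centred ratios, and blood without macrophage or osteoclast nuclei. Sequences of other peaks are not shown.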

Additional observations from a re-analysis of the deposited data

How the results depend on the processing

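No paired analysis was possible because there was 1 library. The count of genes past 2-fold moved by more than 1.5 times most often without a UMI minimum: from 19 to 32 between stromal and blood nuclei, from 13 to 20 in reticular, 10 to 26 in osteoblast, 15 to 27 in osteocyte, 17 to 30 in chondrocyte, 14 to 27 in tenocyte or periosteal, 9 to 24 in mural, 7 to 17 in erythroid, 4 to 26 in granulocyte, 7 to 32 in macrophage or osteoclast and 7 to 30 in B-lymphoid nuclei. This adds genes with few UMIs by construction. The shares of all genes higher and lower were then 8.34% and 61.6% between stromal and blood nuclei. In the order above they were 17.0% and 9.87%, 54.0% and 17.0%, 53.8% and 10.9%, 71.9% and 7.35%, 67.1% and 6.35%, 77.6% and 3.42% in the stromal classes. In the blood classes they were 6.94% and 15.1%, 64.3% and 13.5%, 73.3% and 6.37%, 70.4% and 6.70%. A minimum of 50 UMIs gave 4 in erythroid, 1 in granulocyte, 4 in macrophage or osteoclast and 3 in B-lymphoid nuclei. The shares of all genes higher and lower were 22.7% and 29.2%, 6.33% and 54.3%, 21.1% and 24.3%, 20.3% and 23.3%. A 3-fold limit gave 8 in osteocyte, 3 in mural and 2 in granulocyte nuclei, beside 1.99% and 15.4%, 11.3% and 6.57%, 3.93% and 32.1% of all genes. Classes from clusters gave 11 in chondrocyte (the cluster of that name held 0 of the 7 gated chondrocyte nuclei and 61 ungated ones, so its values are of other nuclei), 8 in tenocyte or periosteal and 15 in mural nuclei. Of all genes 14.9% and 20.6%, 14.1% and 9.27%, 29.5% and 11.9% were higher and lower. A mitochondrial limit of 20% gave 11 in erythroid (18.4% and 31.2% of all genes) and 12 in B-lymphoid nuclei (19.4% and 19.5%). No limit gave 12 in erythroid (21.1% and 29.5%), 7 in granulocyte (5.31% and 37.5%) and 11 in macrophage or osteoclast nuclei (16.9% and 21.1%). The genes behind a count also changed. With no limit, 1 of the 4 granulocyte and 4 of the 9 mural genes stayed past 2-fold in the same direction, and 1 mural gene passed it in the opposite one. A stricter gate kept 4 of the 9 mural genes.

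Log2 ratios that reversed are given by setting, and the cause was not tested. With the limit at 20% and with none, Sema6a in osteocyte nuclei became -0.76 and -1.01, Sema4a in chondrocyte nuclei -0.0571 and -0.53, Plxna2 in tenocyte or periosteal nuclei 0.57 and 0.47, Sema4c in mural nuclei 0.90 and 1.10 and Plxna2 in granulocyte nuclei 0.47 and 0.32. With classes from clusters, Sema4a, Sema3e, Plxnd1 and Sema4b in chondrocyte nuclei became -0.29, -1.03, 0.10 and 1.60 (again over other nuclei), Sema4c and Plxna2 in mural nuclei 0.0711 and -0.23, Slit3 in erythroid nuclei 1.18, and Sema4b and Slit3 in macrophage or osteoclast nuclei 0.0287 and -0.10. Plxna2 in mural nuclei became -0.44 with a stricter gate, Sema4a in mural nuclei -0.16 with 2 times as many doublets removed and Sema4a in reticular nuclei -0.18 with classes weighted alike. Over peaks within 1 kb of the start, chromatin ratios that were past 2-fold over the gene became 0.0258 for Sema3b in reticular nuclei, -2.73 for Sema3b in chondrocyte nuclei and 0.16 for Nrp2 in erythroid nuclei; the smaller Nrp2 ratios of 0.52 in reticular and -0.51 in osteoblast nuclei became -0.42 and 0.59.

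Free RNA subtraction and totals without mitochondrial genes and Gm42418 reversed none of these ratios. Small classes limit the precision: the chondrocyte, tenocyte or periosteal and mural classes held 7, 18 and 19 nuclei.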

Other observations

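The 6 endothelial-like nuclei entered no comparison. No cluster was named endothelial. Clustering placed 1 of them in a B-lymphoid, 1 in a mural, 2 in osteoblast and 2 in tenocyte or periosteal clusters. Plexin D1, the Sema3e receptor of endothelial cells, stood at 1046 CPM (630 to 1634) in the 6 nuclei, on 19 UMIs. Sema6a stood at 661 (341 to 1154), Nrp2 at 606 (302 to 1084) and Nrp1, Robo1 and Sema3f at 330 (121 to 719) each. With no mitochondrial limit, over 24 nuclei, Plxnd1 was 507 CPM (402 to 631), Nrp2 519 (413 to 645) and Nrp1 298 (219 to 396). Sema6a was then 196 CPM (133 to 279), below the interval given above, and Robo1 184 (123 to 264).

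The 601 nuclei that passed no gate had Nrp2 at 618 CPM (572 to 667), Slit2 at 580 (535 to 627) and Slit3 at 467 (428 to 510), and Plxna2 at 205 (179 to 234).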
